A study of Homo sapiens with 6 samples.

Results

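The 10 genes described here encode the receptor chains through which macrophages sense colony-stimulating factors, IL-4 and IL-13, IL-6, IL-10 and interferon-gamma. They were chosen by gene symbol (CSF1R, CSF2RA, CSF2RB, CSF3R, IL4R, IL13RA1, IL6R, IL10RA, IFNGR1 and IFNGR2), and all 10 were found among the 17513 genes of the deposited tables. Per the series description, the RNA came from macrophages made from the human monocytic leukemia line THP1. One group of 3 libraries came from macrophages kept for 48 h in medium of KYSE150 cells carrying the hairpin shSPP1#2, and the other group of 3 from macrophages kept as long in medium of KYSE150 cells carrying shNC. KYSE150 is a human esophageal squamous cell carcinoma line, and the hairpin sat in these tumor cells, not in the macrophages. Both groups thus share the macrophage line and the tumor line whose medium was used, and 1 hairpin against SPP1 was sequenced. The sources used here do not give the way THP1 cells were turned into macrophages. The comparison asks whether tumor SPP1, which encodes the secreted protein osteopontin, alters macrophages toward the M2 type, as the series title frames it.

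The sample labels name KYSE150 itself, so the cells were checked by markers. Of 20 monocyte and macrophage markers, 16 reached 1 FPKM (fragments per kilobase, scaled to library size) in each of the 6 libraries, whereas MRC1 lay between 0.01 and 0.03 FPKM and C1QA, C1QB and C1QC also stayed below 1. Of 15 squamous epithelial markers 1 (S100A2) reached 1 FPKM throughout, and KRT5 lay between 0.00 and 0.03 FPKM. Library totals lay between 18113591 and 20626346 estimated counts. The summed macrophage markers stood at 2728 to 2806 FPKM in shSPP1#2 medium and 2792 to 2989 FPKM in shNC medium. They include CSF1R, itself 1 of the 10 chains, and the adaptor TYROBP. Of the 16 tested markers 6 were higher and 10 lower. FCER1G (log2 fold change -0.18) and AIF1 (-0.21), 2 of the 16, had an unadjusted p under 0.05, beside 6.85% of all genes tested. The part of the marker levels in the receptor values was not tested. Libraries of a group varied beyond counting error (chi-square over degrees of freedom, 3.09 to 4.16). The labels do not tie replicates to separate cultures. The p-values therefore reflect the spread of these libraries alone, and that spread may be technical. In bulk RNA, fewer cells of a type and less RNA per cell cannot be told apart.

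Cytokine receptors act as complexes of chains. CSF1R is a receptor tyrosine kinase that signals as a homodimer, whereas the other 9 chains lack a kinase of their own and work in complexes with Janus kinases, which phosphorylate STAT factors. For the binding chains IL6R and CSF2RA these kinases sit on the partner chains, gp130 and CSF2RB. In macrophages the ligands of CSF1R sustain survival and identity, interferon-gamma primes inflammatory activation, and IL-4, IL-13 and IL-10 are known for alternative or suppressive states.

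No receptor chain passed the test of a difference between the media, and every chain's interval was narrow. With the edgeR quasi-likelihood test over 13555 genes, 0 of the 10 chains reached an adjusted p below 0.05, as did 0% of all genes tested. At an unadjusted p under 0.05 there was 1 chain, CSF2RB, where 6.85% of all genes passed that mark, and the count was 2 without shNC replicate 1 and 0 without shSPP1#2 replicate 3. DESeq2 and limma-voom also called 0 chains, with 0 at an unadjusted p under 0.05, and DESeq2 gave CSF2RA, CSF2RB, CSF3R and IL10RA no adjusted p. Of the 10 chains 4 had a positive and 6 a negative log2 fold change, with a median of -0.0098, beside -0.0003 over all genes tested. Every 95% interval lay within 0.3 of 0 on the log2 scale, from 0.821-fold for CSF2RA to 1.18-fold for CSF2RB.

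**Figure D1:**
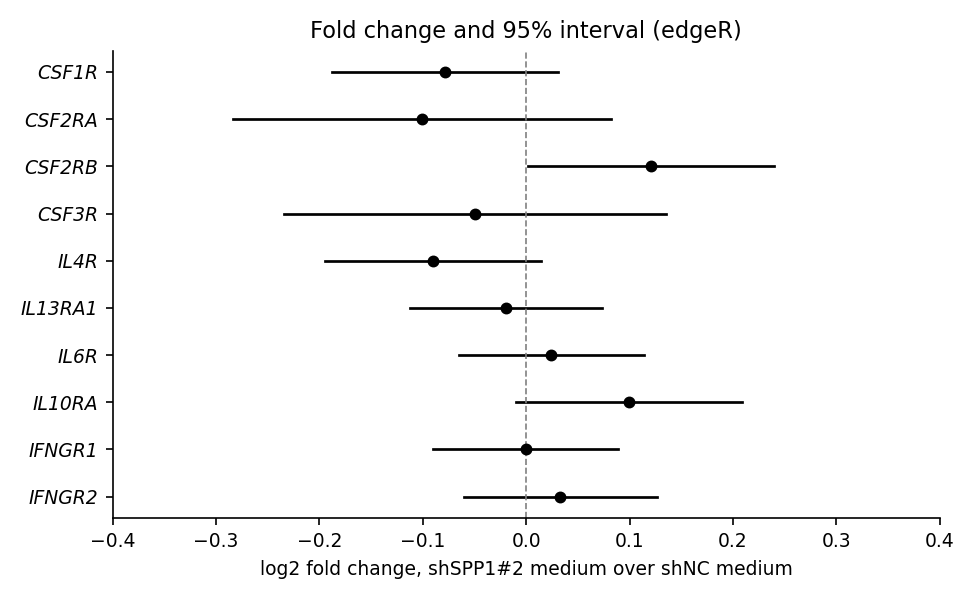
Log2 fold change of each receptor chain, shSPP1#2 medium over shNC medium (x axis), with the 95% interval of the edgeR fit over 3 libraries per group; the dashed line marks 0. All 10 intervals lie within 0.3 of 0, and that of CSF2RB alone leaves out 0, by a narrow margin (0.0019).

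The chains were expressed at very different levels, and their order was the same in both media. CSF1R was the most abundant, with a mean of 212 FPKM over the 6 libraries, above 98.3% of the genes in the table. The interferon-gamma chains IFNGR2 (84.4 FPKM) and IFNGR1 (71.7 FPKM) came next, followed by IL13RA1 (53.8 FPKM), IL4R (47.7 FPKM) and IL6R (39.9 FPKM). CSF2RB (22.2 FPKM), IL10RA (12.7 FPKM), CSF2RA (7.54 FPKM) and CSF3R (5.52 FPKM) were lower. For each of the 9 neighbouring pairs in this order the 6 libraries of one chain lay wholly above the 6 of the next. The closest neighbours were IL13RA1, whose lowest library had 52.32 FPKM, and IL4R, whose highest had 52.15 FPKM. FPKM is scaled by length, so these levels can be set side by side.

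**Figure D2:**
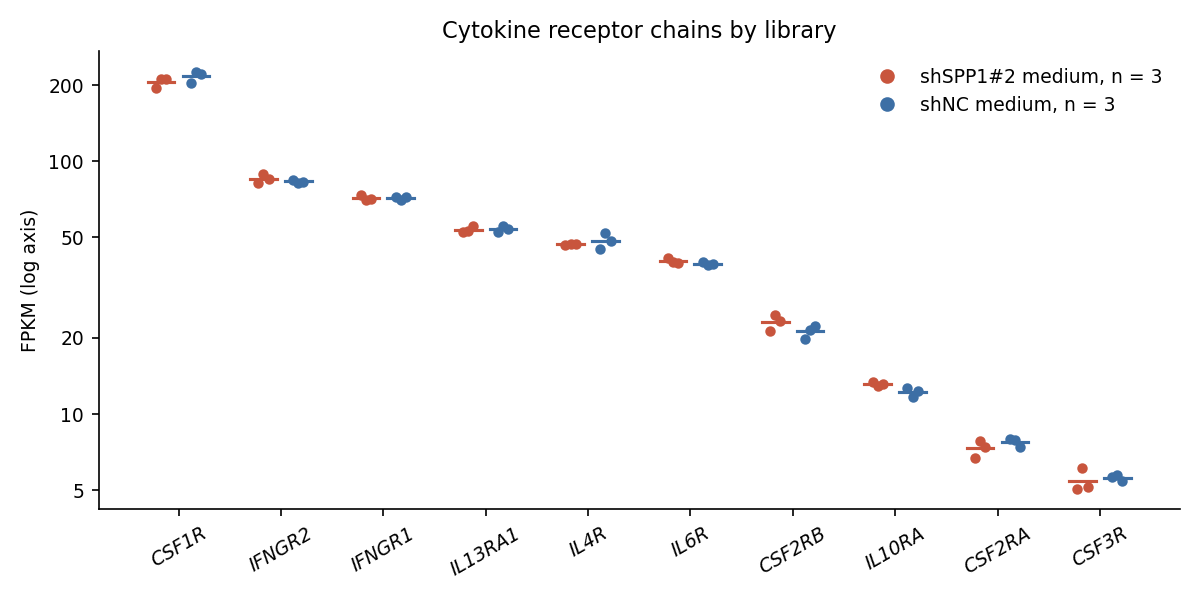
FPKM (log axis) of the 10 receptor chains in order of their mean; points are single libraries of shSPP1#2 medium and shNC medium (n = 3 each) and bars their means. CSF1R lies between 196 and 227 FPKM and CSF3R between 5.07 and 6.14 FPKM, and the groups overlap for every chain except IL10RA.

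CSF1R, the receptor for CSF1 and IL-34, measured 196, 212 and 213 FPKM in replicates 1 to 3 of shSPP1#2 medium, against 204, 227 and 222 FPKM in those of shNC medium. The groups overlapped, with the lowest library in shSPP1#2 medium and the highest in shNC medium. The means were 207 ± 9.37 FPKM in shSPP1#2 medium and 218 ± 12.01 FPKM in shNC medium (SD, n = 3 each). The log2 fold change was -0.079 with a standard error of 0.052 (edgeR adjusted p = 0.836). CSF1R (Entrez 1436) lies on the minus strand of chromosome 5, 150053291 to 150113372 (GENCODE v29 on GRCh38). At a mean of 16169 estimated counts its counting error was 0.786%, and the spread within groups was 5.07%, so depth did not limit this gene.

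Its ligand CSF1 was still more abundant, at 291, 305 and 317 FPKM in shSPP1#2 medium and 282, 313 and 303 FPKM in shNC medium, with a log2 fold change of 0.030 (edgeR adjusted p = 0.955). IL34, the other ligand of CSF1R, was near 0 in both groups, at 0.09 to 0.13 FPKM in shSPP1#2 medium and 0.01 to 0.05 FPKM in shNC medium. It was not tested, having at most 4.39 estimated counts in a library. TYROBP, an adaptor that CSF1R signalling uses, measured 159, 144 and 155 FPKM in shSPP1#2 medium and 157, 189 and 156 FPKM in shNC medium. Its log2 fold change was -0.13 (95% interval -0.27 to 0.007, edgeR adjusted p = 0.746), and the groups overlapped.

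The GM-CSF receptor joins CSF2RA, the ligand-specific alpha chain, to CSF2RB, the common beta chain that IL-3 and IL-5 receptors also use. In shSPP1#2 medium CSF2RB measured 21.4, 24.6 and 23.4 FPKM, against 19.8, 21.6 and 22.4 FPKM in shNC medium (replicates 1 to 3). Its groups overlapped, through shSPP1#2 replicate 1 and both shNC replicates 2 and 3. The log2 fold change of CSF2RB was the largest of the 10, at 0.12, with a 95% interval from 0.0019 to 0.24 (edgeR adjusted p = 0.724). Its unadjusted p in the edgeR model was 0.0468. The log2 fold change was 0.066 without shSPP1#2 replicate 2 and 0.069 without shNC replicate 1. CSF2RB (Entrez 1439) lies on chromosome 22, 36913628 to 36940449, on the plus strand, beside an unprocessed pseudogene, CSF2RBP1, at 36950529 to 36953723. Reads shared with that copy make its estimated counts uncertain.

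CSF2RA, whose fold change had the opposite sign, measured 6.68, 7.84 and 7.42 FPKM in shSPP1#2 medium and 7.99, 7.89 and 7.43 FPKM in shNC medium. The groups overlapped, shSPP1#2 replicate 1 being the lowest. Its log2 fold change was -0.10 (-0.28 to 0.082, edgeR adjusted p = 0.892), at 251 to 301 estimated counts per library. CSF2RA (Entrez 1438) lies in the pseudoautosomal region that the X and Y chromosomes share, at 1268800 to 1310381 of the X chromosome on the plus strand. CSF2, the ligand, had 2.99 to 19.0 estimated counts in shSPP1#2 medium and 5.94 to 10 in shNC medium and was not tested.

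The ratio of CSF2RB to CSF2RA did not overlap between the media. In FPKM the ratio was 3.20, 3.14 and 3.15 in the libraries of shSPP1#2 medium, against 2.48, 2.73 and 3.01 in those of shNC medium. All ratios of the shSPP1#2 libraries lay above those of the shNC libraries. Their means were 3.16 ± 0.035 in shSPP1#2 medium and 2.74 ± 0.26 in shNC medium (SD, n = 3 each), a 1.15-fold difference. Counting errors were 6.02% for CSF2RA and 2.17% for CSF2RB. The small SD of the 3 shSPP1#2 libraries may therefore understate the spread of this ratio. With each library left out in turn the lowest fold was 1.10 (shNC replicate 1 left out) and the highest 1.21 (shNC replicate 3 left out). The ratio was noticed among 7 such ratios, the others overlapping between groups, and was not tested. Set against CSF2RA in this way, 8.68% of the other 10632 genes above the level set for this (mean log2 CPM 2 or more) gave groups that did not overlap. Set against CSF2RB, 15.9% did.

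**Figure D3:**
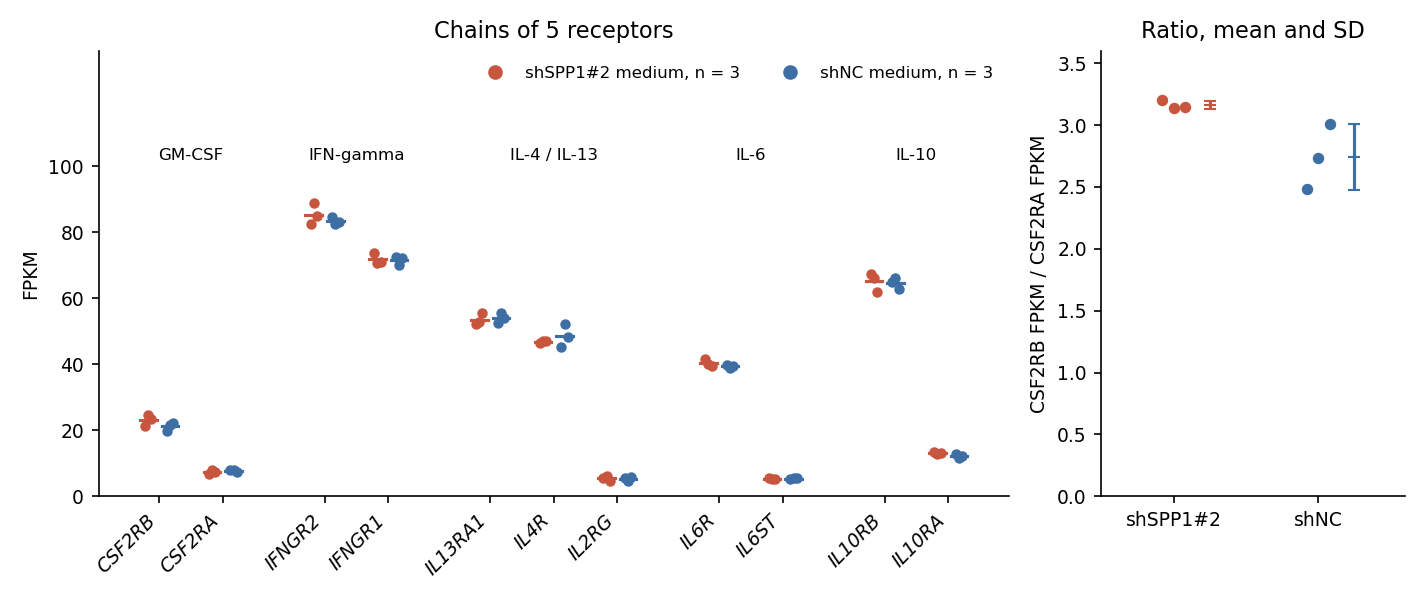
Left, FPKM of the chains of 5 receptors, by library (points) with group means (bars); right, the ratio of CSF2RB to CSF2RA FPKM by library with its mean and SD, for shSPP1#2 medium and shNC medium (n = 3 each). The ratio is 3.14 to 3.20 in shSPP1#2 medium and 2.48 to 3.01 in shNC medium, while the chains themselves overlap except IL10RA.

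CSF3R, the receptor for the granulocyte factor G-CSF, was the least abundant chain. It measured 5.07, 6.14 and 5.14 FPKM in shSPP1#2 medium and 5.62, 5.73 and 5.42 FPKM in shNC medium, and its log2 fold change was -0.050 (-0.23 to 0.14, edgeR adjusted p = 0.957). The shSPP1#2 libraries held both the lowest and the highest value. CSF3R (Entrez 1441) lies on the minus strand of chromosome 1, 36466043 to 36483278. Of 9 granulocyte markers in the table, 4 reached 1 FPKM throughout. The summed level of all 9 was 18.5 to 20.5 FPKM in shSPP1#2 medium and 18.5 to 19.7 FPKM in shNC medium. Of 5 tested, 3 had an unadjusted p under 0.05, beside 6.85% of all genes tested, and 0 were called. These were ELANE at 0.45, CXCR2 at -0.81 and MMP8 at -0.23 in log2 fold change. CXCR2 had only 9.46 to 28.2 estimated counts per library (0.19 to 0.53 FPKM) and ELANE 35 to 61. The granule genes AZU1, PRTN3, ELANE and MMP8 were detected at 1.70 to 8.54 FPKM, whereas MPO lay between 0.02 and 0.08 FPKM. Their part in the CSF3R values was not tested.

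IL4R binds IL-4 and pairs either with IL2RG, the common gamma chain (type I receptor), or with IL13RA1 (type II receptor), which also binds IL-13. IL4R measured 46.6, 46.9 and 47.2 FPKM in shSPP1#2 medium and 45.2, 52.2 and 48.3 FPKM in shNC medium. The shNC libraries spanned the shSPP1#2 libraries, with means of 46.9 ± 0.307 FPKM in shSPP1#2 medium and 48.5 ± 3.49 FPKM in shNC medium (SD, n = 3 each). From the counts its log2 fold change was -0.090 (-0.19 to 0.014, edgeR adjusted p = 0.782), and from log2(FPKM + 1) it was -0.047 (limma adjusted p = 0.919). IL4R (Entrez 3566) spans 27313668 to 27364778 of chromosome 16, plus strand, and an antisense gene, AC106739.1, covers 5.75% of its exonic bases. The sources used here do not say whether counting used strand, so reads from that part are uncertain.

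IL13RA1 (Entrez 3597, X chromosome, 118727572 to 118794539, plus strand) held 52.3 to 55.4 FPKM in shSPP1#2 medium and 52.6 to 55.5 FPKM in shNC medium, nearly the same ranges. Its log2 fold change was -0.019 (-0.11 to 0.074, edgeR adjusted p = 0.964). IL2RG was lower in level, at 4.77 to 6.02 FPKM in shSPP1#2 medium and 4.55 to 5.72 FPKM in shNC medium. A gene on the same strand, AL590764.2, covers 50.8% of the exonic bases of IL2RG, so its counts and its ratio to IL4R are uncertain. The ratio of IL2RG to IL4R was 0.116 ± 0.014 in shSPP1#2 medium and 0.109 ± 0.018 in shNC medium (SD, n = 3 each). IL13RA2, the decoy receptor of IL-13, had 1 to 4 estimated counts in shSPP1#2 medium and 2 to 5 in shNC medium. The ligand IL13 had at most 3 counts in a library, and IL4 was not found by symbol among the deposited genes.

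IL6R, which binds IL-6 and is also shed in soluble form, measured 41.6, 40.0 and 39.4 FPKM in shSPP1#2 medium and 39.8, 39.0 and 39.4 FPKM in shNC medium. The groups overlapped, and the log2 fold change was 0.024 (-0.065 to 0.11, edgeR adjusted p = 0.956). IL6R (Entrez 3570) lies on chromosome 1, 154405193 to 154469450, plus strand, and has a processed pseudogene, IL6RP1, on chromosome 9. IL6ST, the signalling chain gp130, was lower in level, at 5.31 to 5.50 FPKM in shSPP1#2 medium and 5.31 to 5.43 FPKM in shNC medium (log2 fold change 0.0080, edgeR adjusted p = 0.991). IL6 itself had 2 to 5.96 estimated counts in shSPP1#2 medium and 4 to 8 in shNC medium.

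IL10RA, the ligand-binding chain for IL-10, was the single chain whose groups did not overlap. It measured 13.4, 12.96 and 13.2 FPKM with shSPP1#2 medium, against 12.7, 11.6 and 12.4 FPKM with shNC medium. All shSPP1#2 libraries lay above all shNC libraries, with shNC replicate 2 the lowest. The means were 13.2 ± 0.200 FPKM in shSPP1#2 medium and 12.2 ± 0.541 FPKM in shNC medium (SD, n = 3 each). Its counting error was 3.31%, beside a spread within groups of 3.21%. The log2 fold change was 0.099 (-0.010 to 0.21, edgeR adjusted p = 0.765), and 1 chain of 10 without overlap stands beside 11.1% of all genes tested. IL10RA (Entrez 3587) lies on chromosome 11, 117986348 to 118003037, plus strand.

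IL10RB, the partner of IL10RA and a chain shared with other IL-10 family receptors, was higher in level than IL10RA and overlapped between groups. It measured 62.0 to 67.3 FPKM in shSPP1#2 medium and 62.9 to 66.2 FPKM in shNC medium (log2 fold change 0.0070, edgeR adjusted p = 0.993). A gene on the same strand, AP000295.1, covers 38.1% of its exonic bases, which makes its counts uncertain. The ligand IL10 was low, at 0.30 to 0.47 FPKM in shSPP1#2 medium and 0.37 to 0.70 FPKM in shNC medium. Its log2 fold change was -0.48, with an interval from -1.25 to 0.29 that shows how little so few counts can resolve (edgeR adjusted p = 0.872).

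The interferon-gamma receptor pairs IFNGR1, which binds the ligand, with IFNGR2, which is needed for signalling. IFNGR1 measured 73.8, 70.7 and 70.9 FPKM in shSPP1#2 medium and 72.4, 70.1 and 72.2 FPKM in shNC medium. This was the steadiest chain, with a spread of 1.91% over all 6 libraries and a log2 fold change of -0.0004 (-0.090 to 0.089, edgeR adjusted p = 0.9997). IFNGR1 (Entrez 3459) lies on the minus strand of chromosome 6, 137197484 to 137219449.

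IFNGR2 measured 82.4, 88.8 and 85.0 FPKM in shSPP1#2 medium and 84.5, 82.5 and 83.1 FPKM in shNC medium, with a log2 fold change of 0.033 (-0.060 to 0.13, edgeR adjusted p = 0.934). The groups overlapped, and shSPP1#2 libraries held both ends of the range. The ratio of IFNGR2 to IFNGR1 was 1.19 ± 0.070 in shSPP1#2 medium and 1.16 ± 0.013 in shNC medium (SD, n = 3 each). IFNGR2 (Entrez 3460) spans 33402896 to 33479348 of chromosome 21, plus strand, and TMEM50B on the other strand covers 12.8% of its exonic bases. The ligand gene IFNG was not found by symbol among the deposited genes.

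The sequence before the RefSeq starts, which the choice of members did not draw on, divided the chains by CG content. In the 250 bases before each RefSeq start (GRCh38.p14; 12 windows for 9 of the 10 genes), CG dinucleotides numbered 2 to 8 for CSF1R, CSF2RA, CSF3R and IL10RA. They numbered 19 to 37 for IFNGR1, IFNGR2, IL4R, IL13RA1 and IL6R, where the median over 35116 windows of all genes was 11. Some windows on both sides of this split lie within the GENCODE v29 span of their gene. The windows of IL4R, IFNGR2 and IL10RA begin at 27313724, 33403163 and 117989695, after gene starts of 27313668, 33402896 and 117986348. The split is thus not one of sequence upstream of the genes alone. The letters GAGGAA, a core bound by PU.1-type factors, were searched on both strands and found in 6 of the 12 windows, beside 23.6% of all windows. The letters TTCNNNGAA, a core of STAT sites, were in 0 of the 12, beside 6.57% of all windows. SPI1, which encodes PU.1, measured 184 to 194 FPKM in shSPP1#2 medium and 190 to 199 FPKM in shNC medium.

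GAGGAA did not follow the CG split, since the CG-rich window of IL6R and 1 of those of IFNGR1 held it and 1 CG-poor window each of CSF1R and CSF3R did not. The sequences below show 3 CG-poor windows that hold these letters and, for contrast in CG content, the CG-rich window of IL13RA1, which does not, each read in the direction of the gene, with GAGGAA or its reverse complement in capitals. For CSF1R the 30 bases just before the downstream start (chr5:150086555-150086584, minus strand) are given, which hold 2 adjoining copies and lie within an exon annotated by GENCODE v29. For the others the stretch of the window that lies outside every GENCODE v29 exon is given, namely chrX:1268564-1268799 for CSF2RA, chr11:117989695-117989944 for IL10RA and chrX:118727356-118727571 for IL13RA1, all on the plus strand. The RefSeq start used for IL10RA lies downstream of the GENCODE v29 gene start, so its stretch is within the gene's span, between exons. A match of letters is a description and does not show binding.
CSF1R: gcccaaggagGAGGAAGAGGAAaacaagac
CSF2RA: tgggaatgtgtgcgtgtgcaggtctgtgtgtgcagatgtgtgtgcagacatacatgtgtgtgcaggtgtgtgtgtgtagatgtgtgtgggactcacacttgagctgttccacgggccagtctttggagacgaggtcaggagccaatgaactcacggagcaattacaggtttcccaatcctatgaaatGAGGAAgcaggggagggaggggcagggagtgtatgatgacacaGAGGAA
IL10RA: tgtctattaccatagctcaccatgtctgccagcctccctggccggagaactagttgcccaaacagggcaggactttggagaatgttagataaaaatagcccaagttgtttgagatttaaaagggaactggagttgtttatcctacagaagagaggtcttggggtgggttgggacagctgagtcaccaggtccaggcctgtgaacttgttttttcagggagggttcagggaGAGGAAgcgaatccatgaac
IL13RA1: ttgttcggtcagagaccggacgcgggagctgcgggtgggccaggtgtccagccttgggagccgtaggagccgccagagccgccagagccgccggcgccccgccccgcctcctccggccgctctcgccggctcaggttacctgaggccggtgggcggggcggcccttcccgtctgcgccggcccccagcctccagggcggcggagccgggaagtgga

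The quotient of estimated count and FPKM gave a further readout, the transcript length that the authors' FPKM implies, which follows the mix of long and short transcripts assigned to a gene. Across 10682 genes with at least 10 counts and 1 FPKM in every library, the groups did not overlap for 9.65% (9.68% with at least 50 counts). Among the 10 chains they did not overlap for 1, IL13RA1, whose means of 3949.2 and 3948.1 bases in shSPP1#2 medium and shNC medium differed by 1.15 bases. Its lowest shSPP1#2 library stood at 3948.75 bases and its highest shNC library at 3948.53 bases. Rounding of FPKM alone can move a value by 0.377 bases, which is more than the gap between these 2 libraries.

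IL4R had the widest range of implied length among the chains. It was 3134, 3359 and 3298 bases with shSPP1#2 medium, against 3402, 3218 and 3425 bases with shNC medium, a range of 8.80% of the mean. The groups overlapped, with means of 3264 ± 116 bases in shSPP1#2 medium and 3348 ± 114 bases in shNC medium (SD, n = 3 each). This spread accompanies the unequal fold changes of IL4R from counts and from FPKM. GENCODE v29 lists 11 coding transcripts of IL4R, 201 to 3685 bases long, and the gene-level tables do not say which of them gained or lost reads. CSF1R, at 3801 to 3802 bases, hardly varied.

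**Figure D4:**
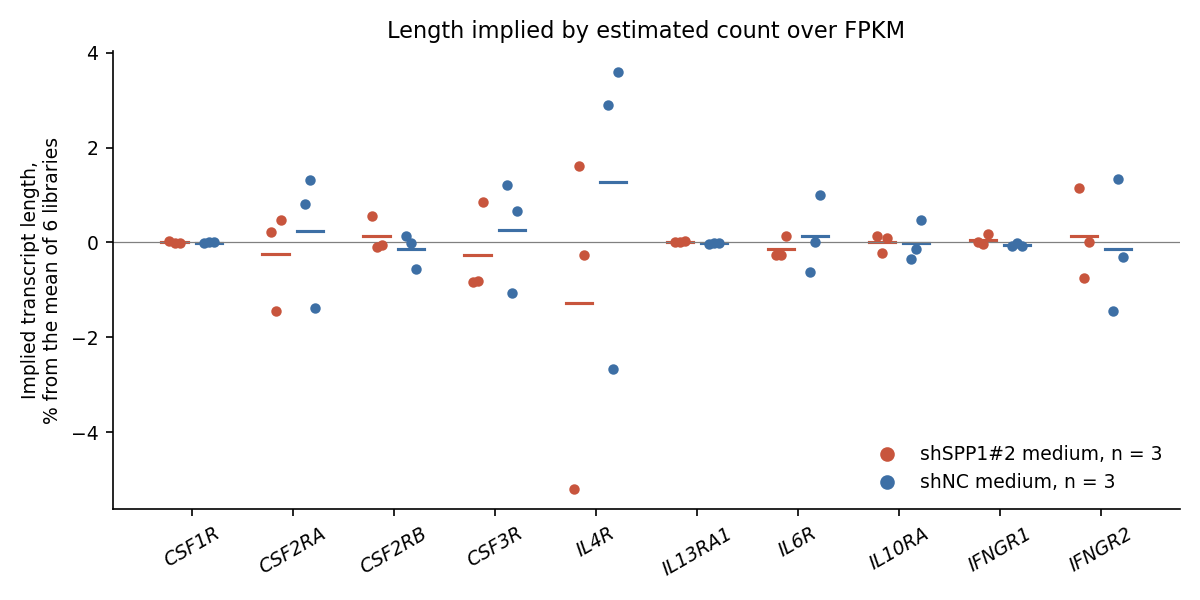
Transcript length implied by estimated count over FPKM, as percent from the mean of the 6 libraries, by receptor chain and library for shSPP1#2 medium and shNC medium (n = 3 each; bars are means). IL4R spans 8.80% of its mean and CSF1R 0.0418%, and the groups of IL4R overlap.

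Genes around the receptors also held no call. Over 9 lists of partner chains, related receptors, ligands, kinases, shedding factors and response genes, 81 genes beside the members were tested, and 0 reached an adjusted p below 0.05 in edgeR. At an unadjusted p under 0.05 there were 5 of 81, a share near the 6.85% of all genes tested. At the same unadjusted mark DESeq2, with no filter on low counts before the fit, gave 5 of 98, and limma-voom 6 of 81. DESeq2 gave an adjusted p to 1893 genes only, and genes outside these could not be called by it. With the 3 tested ligands aside, list medians ran from -0.033 to 0.067 on the log2 scale. Over all genes tested 6759 were higher and 6796 lower, and the median log2 fold change with sign left aside was 0.062. Whether any list moved as a set was not tested.

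Receptor-proximal kinases and adaptors had 9 of 11 members higher in shSPP1#2 medium and a median of 0.019. IRS2, an adaptor phosphorylated downstream of IL-4 receptors, measured 18.6, 18.3 and 19.7 FPKM in shSPP1#2 medium and 15.99, 16.1 and 17.9 FPKM in shNC medium. The IRS2 groups did not overlap, and its log2 fold change was 0.17 (0.066 to 0.27, edgeR adjusted p = 0.486). In CPM, 1 of the 11 members was apart, beside 11.1% of all genes tested. JAK1 (0.054), the adaptor SHC1 (0.034) and the lipid phosphatase INPP5D (0.038) had smaller log2 fold changes, each with an interval that includes 0. The other Janus kinases, named here as a family, stood at 4.32 to 48.7 FPKM for JAK2 and TYK2 over the 6 libraries, whereas JAK3, the kinase that IL2RG carries, stood at 0.12 to 0.27 FPKM.

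Factors that shed or degrade receptors had 5 of 5 log2 fold changes above 0, with a median of 0.067 and 0 calls. The sheddases ADAM10 and ADAM17, which cleave IL6R and CSF1R, stood at 0.067 (-0.026 to 0.16) and 0.055 (-0.037 to 0.15) in log2 fold change. The ADAM17 cofactor RHBDF2 stood at 0.077 and the ubiquitin ligase CBL, which acts on CSF1R, at 0.082. All of these intervals include 0. Of 13 tested related receptors, 6 were higher and 7 lower, with IL27RA at -0.11, IL11RA at -0.13, FLT3 at 0.12 and OSMR at -0.058 in log2 fold change.

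Interferon-gamma response genes had a median of 0.019, with 10 of 16 tested members higher and 0 calls. WARS1, a tryptophanyl-tRNA synthetase, measured 177, 173 and 157 FPKM in shSPP1#2 medium and 156, 150 and 142 FPKM in shNC medium. The WARS1 groups did not overlap, and its log2 fold change was 0.18 (0.068 to 0.29, edgeR adjusted p = 0.486). In CPM, 2 of the 16 tested members were apart, beside 11.1% of all genes tested. The guanylate-binding genes GBP1 and GBP5, with fewer than 50 counts in every library, stood at 0.32 and -0.32 in log2 fold change. CXCL10 lay at 0.00 to 0.04 FPKM and HLA-DRA at 0.00 to 0.16 FPKM over the 6 libraries. Of the 18 listed response genes present, 9 reached 1 FPKM in every library, among them ICAM1 at 150 to 163 FPKM and IRF1 at 23.2 to 25.7 FPKM.

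Among 8 tested response genes of IL-4 and IL-13, 4 were higher and 4 lower, and the median was 0.0092. CD209, a lectin receptor that IL-4 induces, measured 16.7, 17.0 and 17.3 FPKM in shSPP1#2 medium and 15.6, 14.4 and 15.3 FPKM in shNC medium (log2 fold change 0.17, edgeR adjusted p = 0.483). The chemokine CCL22 had a log2 fold change of the other sign, -0.21 (edgeR adjusted p = 0.633), PPARG stood at 0.12 and TGM2 at -0.054. Several classical members, among them ALOX15 (0.04 to 0.12 FPKM) and CCL18 (0.00 to 0.04 FPKM), were near 0 in all libraries.

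STAT3-linked response genes of IL-6 and IL-10 had 8 of 11 tested members lower and a median of -0.033. SOCS3, a feedback inhibitor of gp130 signalling, measured 16.8, 17.7 and 15.6 FPKM in shSPP1#2 medium and 16.9, 19.3 and 19.98 FPKM in shNC medium (log2 fold change -0.16, edgeR adjusted p = 0.691). The SOCS3 groups overlapped. CD163 stood at -0.23 and IL1RN at -0.098, both with groups that did not overlap in CPM or FPKM. These were 2 of 11 tested members apart in CPM, beside 11.1% of all genes tested. ETV3 stood at -0.088, with groups apart in FPKM and overlapping in CPM. None had an adjusted p below 0.05. The 12 tested response genes of the CSF receptors split evenly, 6 to either side of 0, around a median of -0.00047. EGR1 stood at 0.070, BCL2A1 at -0.057, CISH at 0.12 and CCND1 at -0.045.

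**Figure D5:**
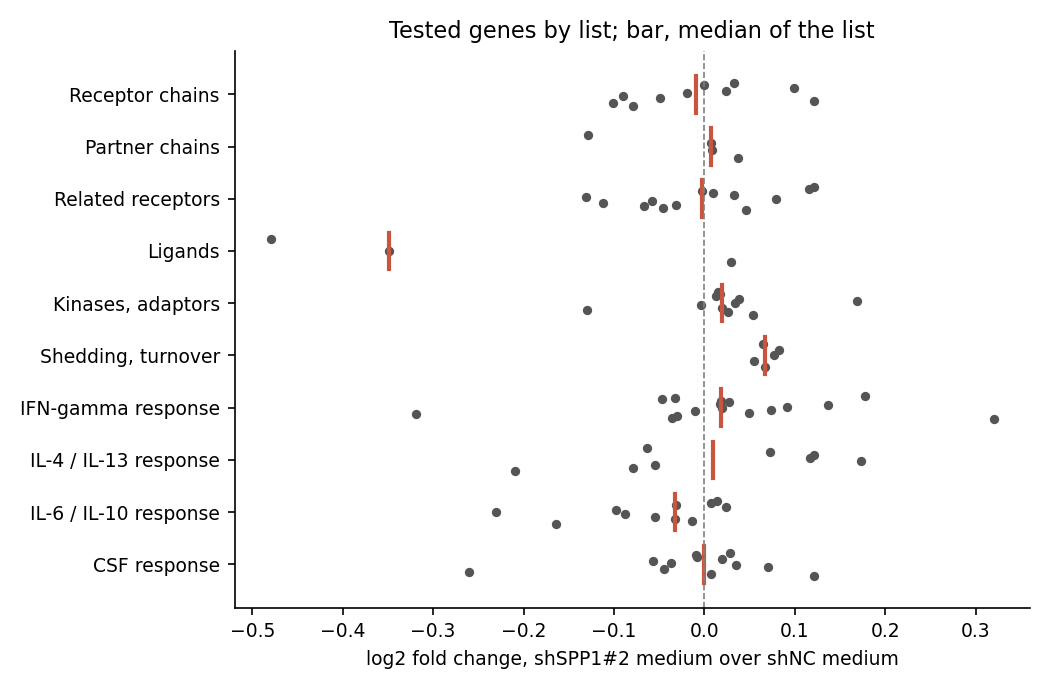
Log2 fold change, shSPP1#2 medium over shNC medium (x axis), of each tested gene of the receptor chains and 9 related lists; red bars are list medians. List medians other than that of the 3 ligands lie between -0.033 and 0.067, and no gene shown was called.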

How the data were processed

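Per the labels' protocols, TRIzol was used for extraction and the DNBSEQ platform for sequencing of polyA RNA. The authors deposited estimated counts per gene, not scaled, and FPKM values per gene, scaled by length and library total as they defined them. HISAT2 2.0.4, Bowtie2 2.2.5, RSEM and GRCh38.p13 are named, without roles, per the submitters' processing notes. Division of reads between transcripts by estimation can move reads between overlapping or copied genes. Lines of stray text (20) were dropped from the FPKM table.

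Estimated counts were rounded, filtered with filterByExpr (13555 genes), scaled (TMM) and compared, shSPP1#2 minus shNC, by the quasi-likelihood test of edgeR 4.0.16 under R 4.3.3, with all 6 libraries, no block, with Benjamini-Hochberg adjustment over all genes tested and a call below 0.05. Errors and 95% intervals come from that fit. The test was checked on simulated counts. Alternatives used DESeq2 1.42.0, limma 3.58.1, other scalings and filters, a replicate block and each library left out. Implied length is estimated count over FPKM and library total, centred by the library median. Coordinates and exons are from GENCODE v29, matched by Entrez number, and promoter windows from RefSeq. Named genes were the 10 chains, their partner chains and ligands, up to 4 genes of smallest p per other list, and the 3 genes nearest to the chain of smallest p; ALOX15, CCL18, CXCL10, HLA-DRA, the Janus kinases other than JAK1, SPI1 and IFNAR2 were added after values were seen. The members and lists were chosen with earlier results of these data known. One gene that the naming rule selects is not reported here. Figures were drawn with matplotlib 3.10.9.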

Additional observations from a re-analysis of the deposited data

How the results depend on the processing

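The 0 calls among the receptor chains held under all 17 alternatives (scaling, filter, tool, unit, GC trend, replicate block and each library left out). The median of the chains stayed between -0.021 and 0.0051, changing sign without shSPP1#2 replicate 1 or 3. CSF1R, CSF2RA, CSF2RB, IL4R, IL6R, IL10RA and IFNGR2 kept their sign in all 17. With single libraries left out, CSF1R ran from -0.13 to -0.040, CSF2RA from -0.15 to -0.041, CSF2RB from 0.066 to 0.17, IL4R from -0.13 to -0.056, IL6R from 0.0041 to 0.048, IL10RA from 0.071 to 0.12 and IFNGR2 from 0.0016 to 0.052. The chains with an unadjusted p under 0.05 numbered 0 to 2 under the alternatives other than the replicate block, reaching 2 without shNC replicate 1 and with the GC and length trend removed. IFNGR1, near 0, changed sign with library totals only (0.0048), no low-count filter (0.0019), a CPM of at least 1 in 3 libraries (0.00018), limma on log2(FPKM + 1) (0.0034) and on log2(FPKM + 0.1) (0.0034); with single libraries left out it ran from -0.019 to 0.018, CSF3R from -0.15 to 0.0055 and IL13RA1 from -0.045 to 0.0064. The cause was not tested. Correlations of same-numbered libraries' deviations were 0.220, 0.294 and 0.0924, all above 0, and the main fit did not take the numbers as pairs. On the first principal component (33.3% of variance) replicate 2 lay highest, at 7.19 (shSPP1#2) and 9.87 (shNC). Replicate 1 lay at -7.37 and -4.60 and replicate 3 at -5.64 and 0.549, in the same order of groups. Whether same-numbered libraries share a batch was not tested. With the replicate block 59 genes were called in all. They held 0 receptor chains (3 with an unadjusted edgeR p under 0.05) and 1 gene of the related lists, WARS1 (11 with an unadjusted p under 0.05). No low-count filter gave 18 calls over all genes, and DESeq2 gave 25 among the 1893 genes with an adjusted p. None of these calls was a chain or a related gene. CSF2RA, CSF2RB, CSF3R and IL10RA had no adjusted p in DESeq2 and could not be called there. Depth limits CSF2RA and CSF3R, whose counting errors were 6.02% and 5.59%, and leaves IL34, CSF2, IL13, IL6 and IL13RA2 untested. It also limits IL10RA, whose counting error (3.31%) was about its spread within groups (3.21%).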

Other observations

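CSF1R and IL4R, which share no receptor, followed the same order over the 6 libraries in TMM-scaled CPM. Both were lowest in shSPP1#2 replicate 1, followed by shNC replicate 1, shSPP1#2 replicate 3, shSPP1#2 replicate 2, shNC replicate 3 and shNC replicate 2. GC content of the longest coding transcript was 57.3% for CSF1R and 58.1% for IL4R. CSF3R (60.9%) and IL10RA (56.1%) were similar in GC content and did not follow that order, IL10RA being highest in shSPP1#2 replicate 1 and lowest in shNC replicate 2. Over 10598 genes the slope of log2 CPM on GC content per 10 percentage points was also lowest in shSPP1#2 replicate 1 (-0.030) and highest in shNC replicate 2 (0.035). An added alternative, picked once the data had been seen, removed each library's trend over GC content and length. The log2 fold changes between groups were then -0.072 for CSF1R and -0.082 for IL4R, beside -0.079 and -0.090 in the main fit. The cause of the shared library order was not tested.

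Among related receptors, the interferon receptor chain IFNAR2 gave different answers by unit. In FPKM it measured 24.2, 23.5 and 23.9 in shSPP1#2 medium and 23.2, 22.6 and 22.2 in shNC medium, with no overlap, whereas its log2 fold change from counts was -0.0029 (edgeR adjusted p = 0.998). The implied transcript length was 3400 ± 43.6 bases in shSPP1#2 medium and 3567 ± 102.4 bases in shNC medium (SD, n = 3 each), also with no overlap. It was singled out after its values were seen, and the difference was not tested. The partner chain IL6ST was likewise apart in implied length, at 8947 ± 28.6 bases in shSPP1#2 medium and 8886 ± 16.9 bases in shNC medium. FPKM rounding alone can move a value of IL6ST by 8.40 bases. Both genes stand beside 9.65% of 10682 genes whose groups did not overlap in implied length. The share of all genes apart in FPKM was not computed.

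The genes whose centred log2 CPM lay nearest to that of CSF2RB over the 6 libraries were NCDN, TLK2 and PRC1. Their root mean square differences from it were 0.0247, 0.0268 and 0.0271, where the median over 10634 genes was 0.124.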
